A study of Mus musculus with 4 samples.

Results

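The unfolded protein and heat shock response genes described here are 40 named mouse genes that encode protein-folding chaperones of the endoplasmic reticulum (ER), the sensors and transcription factors of the unfolded protein response, targets of the transcription factor ATF4, cytosolic heat shock proteins and the mitochondrial chaperonin. They were taken by gene name from a count table of 54532 gene rows, in which 41 rows carried a member's name. A second row named Ddit3 held 0 counts in all 4 libraries and was not used. The members fall into 15 ER chaperones and ER quality control genes, 5 sensors and factors, 8 ATF4 targets, 10 cytosolic heat shock genes and 2 genes of the mitochondrial chaperonin.

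RNA-sequencing was performed on MPC5 cells, a conditionally immortalized mouse podocyte line, in a control group treated with saline (2 libraries) and an IL-12 treatment group incubated with the cytokine for 6 h (2 libraries). Both groups are the same cell line grown in culture, so both carry its immortalizing modification and neither models the other cells of a glomerulus. Separate cultures are not stated for the 2 libraries of either group, so the p-values measure only the spread between these libraries, which may be technical. The libraries held 18678298 and 18649395 counts in the control group and 20098012 and 18355379 in the IL-12 treatment group. The mitochondrial genes took 1.94% to 2.04% of the counts of a library. Libraries differed less within a group than between the groups. Of the defining podocyte genes, Nphs1, which encodes nephrin, was at 0 or 1 count per library, Wt1 was at 4 to 16, and Tcf21 and Ptpro were at 0. Synpo, Podxl, Cd2ap and Actn4, which podocytes share with other cells, were measured at 52.5 CPM or more in every library. CPM is the count of a gene relative to the total of its library, scaled by the TMM method.

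When unfolded proteins build up in the ER, the sensors IRE1 (Ern1), PERK (Eif2ak3) and ATF6 start the unfolded protein response, which raises the folding capacity of the ER through the factors XBP1, ATF6 and ATF4. PERK shares its output, the phosphorylation of the initiation factor eIF2α, with other kinases, and ATF4 then drives genes of amino acid supply and of the stress-induced cell death programme. The heat shock response is a separate programme of the cytosol, in which the factor HSF1 raises chaperones of the Hsp70, Hsp90, Hsp40 and small heat shock families. Podocytes make and secrete much of the glomerular basement membrane, and their ER chaperones have been studied in proteinuric disease.

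Among the 40 members, 38 passed the filter on low counts and entered edgeR's quasi-likelihood test, with p-values adjusted by Benjamini and Hochberg over 14095 genes. The threshold for a call was an adjusted p of 0.05. After IL-12 treatment, 26 members were higher and 2 were lower, Hspa1b and Bag3, and 10 did not pass. Over all genes tested, 16.1% were called higher and 14.4% lower. All 38 members tested had a mean of at least 10 CPM, and among the 9496 genes at that level 21.7% were called higher and 18.2% lower. The changes of the members were small. Their median log2 fold change was 0.20, beside -0.002 over all genes tested and 0.01 over those of at least 10 CPM, and the range was -0.57 to 0.51. By the stricter criterion of the study, which also asks for a change over 2-fold, 0 members were called by edgeR, beside 1.61% of all genes, and DESeq2 and limma voom also gave 0. At an unadjusted p under 0.05, without the fold criterion, edgeR gave 31 members, beside 39.4% of all genes. Both IL-12 libraries lay above both control libraries for 33 members, beside 31.7% of all genes, and below them for 4 members, beside 31.2%. Dnajb11 was the 1 tested member whose groups overlapped. In an exact permutation test of a single value, 2 libraries against 2 cannot reach a p below 0.333.

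**Figure D1:**
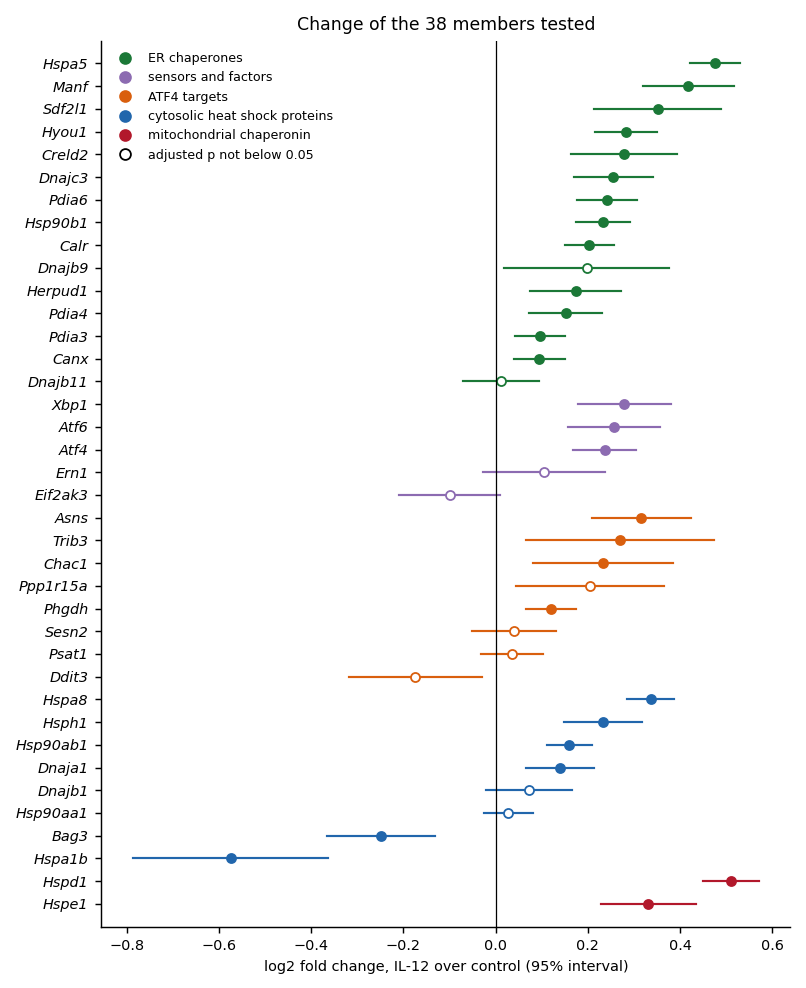
Log2 fold change of the 38 members tested, IL-12 over control, with 95% confidence intervals from the edgeR fit of 2 libraries against 2. Each row is a gene, the colours mark the 5 groups of members, and open circles mark the 10 members that did not pass. Most points lie to the right of 0, and Hspa1b and Bag3 are the filled points to its left.

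Taken as a share of all counts of a library, the members made up 1.36% in each control library and 1.53% and 1.52% in the IL-12 libraries. The ER chaperones went from 0.560% and 0.559% to 0.638% and 0.633% of counts, the cytosolic heat shock genes from 0.533% and 0.532% to 0.587% and 0.589%, and the ATF4 targets from 0.151% and 0.152% to 0.159% and 0.158%. In each of these groups the IL-12 libraries lay above the control libraries. RNA was measured in bulk, so a change in the cells that make a transcript and a change of its level per cell cannot be told apart.

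Of the 15 ER chaperones, 13 were higher, 0 lower and 2 did not pass, beside 16.1% of all genes called higher and 14.4% lower. Their median log2 fold change was 0.23, with a range of 0.01 to 0.48. Hspa5, which encodes BiP, the main Hsp70 chaperone of the ER lumen and the protein that holds the sensors inactive, measured 807 and 802 CPM in the control libraries and 1130 and 1107 CPM in the IL-12 libraries. The gap between the groups was many times the gap within either one. Its log2 fold change was 0.48 ± 0.03 (SE; 1.39-fold, edgeR adjusted p = 1.24e-10, 95% interval 0.42 to 0.53). The gene (ENSMUSG00000026864) lies on the plus strand of chromosome 2, from base 34771970 to 34777547.

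Manf, a secreted ER stress-inducible factor, was at 96.5 and 90.9 CPM in the control libraries and 127 and 124 CPM in the IL-12 libraries, and the groups did not overlap. The log2 fold change was 0.42 ± 0.05 (SE, adjusted p = 1.53e-06). This value is uncertain, because the annotated gene overlaps Rbm15b on its own strand, whose counts equalled 108% of those of Manf, and Dcaf1 on the other strand, at 60.2%, and the sources used here do not say whether counting used strand. Sdf2l1, a partner of ER-resident Hsp40 proteins, went from 38.2 and 42.7 to 52.5 and 50.7 CPM, a log2 fold change of 0.35 ± 0.07 (SE, adjusted p = 0.000387). Hyou1, a nucleotide exchange factor of BiP, went from 286 and 285 to 350 and 345 CPM (log2 fold change 0.28 ± 0.03, adjusted p = 1.75e-06). Creld2, an ER stress-inducible protein of the ER, rose from 50.9 CPM in both control libraries to 62.9 and 60.5 CPM (0.28 ± 0.05, adjusted p = 0.000639). In each of these genes both IL-12 libraries exceeded both control libraries.

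Hsp90b1, the Hsp90 of the ER, was at 554 and 562 CPM in the control libraries and 651 and 660 CPM in the IL-12 libraries (log2 fold change 0.23 ± 0.03, SE, adjusted p = 3.57e-06). Calr, or calreticulin, a soluble lectin chaperone and calcium store protein, was at 987 CPM in both control libraries and at 1146 and 1125 CPM after IL-12 (0.20 ± 0.03, adjusted p = 5.76e-06). Its membrane-bound relative Canx, or calnexin, changed less, from 724 and 730 to 774 and 778 CPM (0.09 ± 0.03, adjusted p = 0.0107). The disulfide isomerases showed the same spread of sizes. Pdia6 rose by 0.24 ± 0.03 (SE, adjusted p = 7.40e-06), Pdia4 by 0.15 ± 0.04 (adjusted p = 0.00434) and Pdia3, the partner of calreticulin and calnexin, by 0.10 ± 0.03 (adjusted p = 0.00735) on the log2 scale. Herpud1, which acts in the degradation of ER proteins, rose by 0.17 ± 0.05 (adjusted p = 0.00841). The calls of Canx, Pdia3, Pdia4 and Herpud1 did not hold in every setting, as given under processing below.

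The J-domain co-chaperones of BiP differed in their calls. Dnajc3 rose from 131 and 132 to 156 and 158 CPM (log2 fold change 0.25 ± 0.04, SE, adjusted p = 8.15e-05). Dnajb9 was at 22.5 and 21.7 CPM in the control libraries and 26.4 and 24.2 CPM in the IL-12 libraries and did not pass (0.20 ± 0.09, adjusted p = 0.0903, 95% interval 0.02 to 0.38). Dnajb11 was at 165 and 163 CPM against 167 and 164 CPM, and its interval of -0.07 to 0.09 holds no log2 change larger than 0.09 in either direction (adjusted p = 0.869). The groups overlapped for Dnajb11 and not for the other two.

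**Figure D2:**
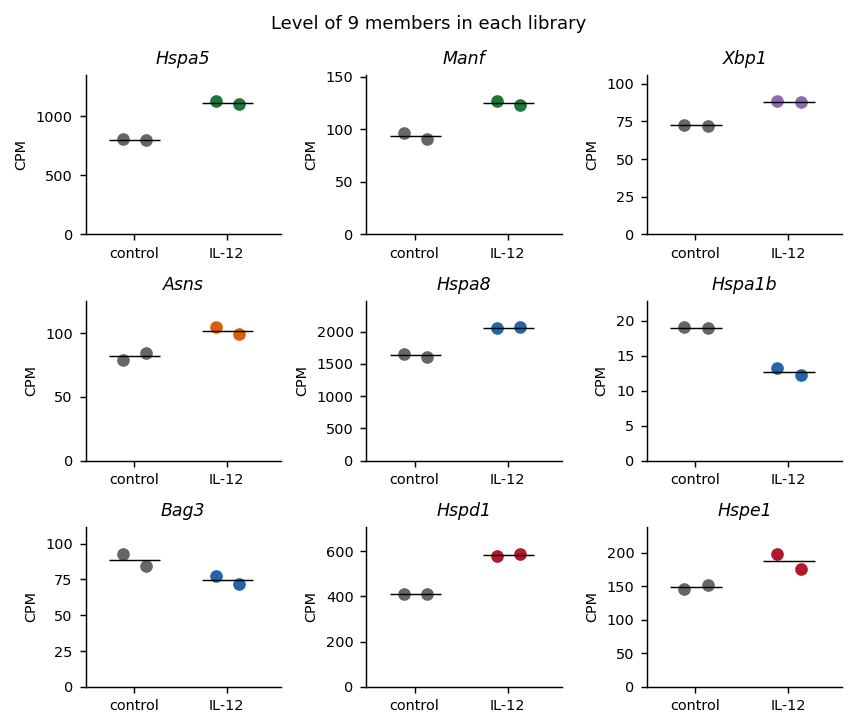
Level in CPM of 9 members (Hspa5, Manf, Xbp1, Asns, Hspa8, Hspa1b, Bag3, Hspd1 and Hspe1) in the 2 control and 2 IL-12 libraries; each point is a library, each bar the group mean, and every axis starts at 0. The groups do not overlap in any panel, the IL-12 points lying below control for Hspa1b and Bag3 and above it for the other genes.

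Promoters of some ER chaperones hold a sequence known from the unfolded protein response. The members were chosen as genes of that response, so its presence in them is no independent result. The ER stress element, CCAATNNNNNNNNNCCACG, is the site known to bind NF-Y and ATF6. It was searched on both strands in RefSeq promoter windows of 300 bases (build GRCm38.p6, 250 bases before to 50 after each start), which cover 34 of the 40 members and 27025 genes in all. It was found in 7 of 13 ER chaperone windows (53.8%) and in 37 of the 27025 (0.137%), and in no window of the other members. The sites of these 7 genes are printed in the direction of the gene, with the matched letters in capitals. A match that begins CGTGG is the element on the other strand.
Hspa5, chr2:34772020-34772048, plus strand: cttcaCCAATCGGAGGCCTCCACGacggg
Hsp90b1, chr10:86705633-86705661, minus strand: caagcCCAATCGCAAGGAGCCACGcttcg
Hsp90b1, chr10:86705528-86705556, minus strand: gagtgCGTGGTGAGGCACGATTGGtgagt
Calr, chr8:84847070-84847098, minus strand: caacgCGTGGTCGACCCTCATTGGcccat
Canx, chr11:50325795-50325823, minus strand: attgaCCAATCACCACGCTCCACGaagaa
Pdia6, chr12:17266486-17266514, plus strand: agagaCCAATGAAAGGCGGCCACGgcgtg
Dnajc3, chr14:118937822-118937850, plus strand: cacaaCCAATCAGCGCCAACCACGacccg
Creld2, chr15:88819515-88819543, plus strand: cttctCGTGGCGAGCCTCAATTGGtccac
All 7 of these genes were among the 13 ER chaperones called higher. Of the ER chaperones whose window held no match, Pdia3, Pdia4, Sdf2l1 and Herpud1 were also called higher, and Dnajb9 and Dnajb11 did not pass. A link between the element and the changes was not tested. The windows of Manf and Hyou1 were not in the table. A match is a run of letters and was not tested for binding.

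The window of Hspa5 is given at length, as it is the ER chaperone with the largest change. These are the 250 bases before its RefSeq start, chr2:34771840-34772089 on the plus strand, with the element in capitals.
Hspa5 promoter: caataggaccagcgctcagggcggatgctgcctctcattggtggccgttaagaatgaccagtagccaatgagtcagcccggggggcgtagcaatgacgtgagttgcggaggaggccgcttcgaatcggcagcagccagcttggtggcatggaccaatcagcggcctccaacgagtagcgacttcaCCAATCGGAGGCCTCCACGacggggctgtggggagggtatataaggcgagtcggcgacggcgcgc
The element lies 65 to 47 bases before that start. The unfolded protein response element TGACGTGG is known as a site of ATF6 and XBP1. It was in 0 of the 34 members with a window and in 0.714% of all genes with one.

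Of the 5 sensors and factors, 3 were higher and 0 lower, beside 16.1% and 14.4% of all genes. Their median log2 fold change was 0.24. Xbp1, whose transcript IRE1 splices into the active factor, was at 72.9 and 72.3 CPM in the control libraries and at 88.5 and 87.7 CPM in the IL-12 libraries. Its log2 fold change was 0.28 ± 0.05 (SE, adjusted p = 0.000175). The counts are per gene, so the spliced and unspliced forms of Xbp1 were not told apart. Atf6, the membrane-bound sensor and factor, rose from 78.6 and 80.9 to 96.4 and 94.2 CPM (0.26 ± 0.05, adjusted p = 0.000379). Atf4 was at 314 and 328 CPM in the control libraries and 377 and 379 CPM after IL-12 (0.24 ± 0.03, adjusted p = 1.75e-05), though ATF4 is known to be controlled mainly at translation, which was not measured. These factors were higher in both IL-12 libraries.

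The kinases did not pass. Ern1 was at 40.6 and 43.4 CPM against 44.8 and 45.5 CPM, with a log2 fold change of 0.10 ± 0.06 (SE, adjusted p = 0.238, 95% interval -0.03 to 0.24). Eif2ak3 was at 65.4 and 67.3 CPM against 62.8 and 61.1 CPM, with a negative log2 fold change of -0.10 ± 0.05 (adjusted p = 0.170, interval -0.21 to 0.01). Neither pair of groups overlapped. When libraries were scaled by their totals alone, Eif2ak3 passed as lower (-0.14, adjusted p = 0.0491). IRE1 and PERK are activated by phosphorylation, which transcript counts do not show.

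The 8 ATF4 targets were divided. Among them 4 were higher, 0 were lower and 4 did not pass, beside 16.1% of all genes called higher and 14.4% lower. Their median log2 fold change was 0.16, with a range of -0.17 to 0.32. Asns, which makes asparagine and is a standard ATF4 target, was at 79.0 and 84.6 CPM in the control libraries and 105 and 99.1 CPM in the IL-12 libraries. Its log2 fold change was 0.32 ± 0.05 (SE, adjusted p = 8.99e-05). Phgdh, the first enzyme of serine synthesis, rose from 862 and 861 to 932 and 941 CPM (0.12 ± 0.03, adjusted p = 0.00143). Psat1, the next enzyme of the same pathway, was at 310 and 312 CPM against 320 and 318 CPM and did not pass (0.04 ± 0.03, adjusted p = 0.457). Both enzymes were above their control libraries in both IL-12 libraries, by 8.67% and 2.46%.

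Trib3, a pseudokinase that feeds back on ATF4, was at 19.1 and 22.6 CPM against 26.6 and 23.6 CPM (log2 fold change 0.27 ± 0.10, SE, adjusted p = 0.0415). Chac1, which degrades glutathione, was at 28.2 and 28.0 CPM against 33.1 and 32.9 CPM (0.23 ± 0.07, adjusted p = 0.0192). Both calls rest on the settings. Trib3 did not pass without control library 1 or either IL-12 library, and Chac1 lost its call whichever of the 4 libraries was left out; neither passed with DESeq2's Wald test. Ppp1r15a, which encodes the GADD34 subunit that reverses eIF2α phosphorylation, missed the threshold (0.20 ± 0.08, adjusted p = 0.0516), as did the leucine sensor Sesn2 (0.04 ± 0.04, adjusted p = 0.552).

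Ddit3, which encodes the pro-apoptotic factor CHOP, was at 38.6 and 37.5 CPM in the control libraries and at 34.8 and 32.6 CPM in the IL-12 libraries. It lay below control in both IL-12 libraries, unlike the other ATF4 targets. The log2 fold change was -0.17 ± 0.07 (SE, adjusted p = 0.0647, 95% interval -0.32 to -0.03) and did not pass. With libraries scaled by their totals alone it did (-0.22, adjusted p = 0.0231). Ddit3 overlaps Mars by 68 bases on the opposite strand, and Mars had 370% of its counts.

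The C/EBP-ATF response element, TGATGNAA, searched on both strands, is the composite site known to bind ATF4 with a C/EBP partner. It was in 3 of 8 ATF4 targets (37.5%), in Herpud1 of the ER chaperones, and in 4.51% of all genes with a window. The ATF4 targets with a site, Asns, Trib3 and Chac1, were called higher, though the calls of Trib3 and Chac1 rest on the settings. Phgdh was called higher without a match. A link between the site and the changes was not tested. The 3 sites are printed in the direction of the gene, with the matched letters in capitals.
Asns, chr6:7693214-7693243, minus strand: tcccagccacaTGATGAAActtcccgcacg
Trib3, chr2:152344028-152344057, minus strand: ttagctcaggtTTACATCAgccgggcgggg
Chac1, chr2:119351038-119351067, plus strand: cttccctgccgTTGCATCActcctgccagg
The site of Asns lies 23 to 16 bases before the RefSeq start, that of Trib3 15 to 22 bases after it and that of Chac1 193 to 186 bases before it.

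The cytosolic heat shock genes moved in both directions. Of the 10, 8 were tested, and of those 4 were higher, 2 lower and 2 did not pass. Beside this, 16.1% of all genes were called higher and 14.4% lower. The median log2 fold change of these 8 genes was 0.11. Hspa8, the constitutive Hsp70, was at 1658 and 1611 CPM in the control libraries and at 2059 and 2068 CPM after IL-12, with a log2 fold change of 0.34 ± 0.02 (SE; 1.26-fold, adjusted p = 4.40e-09). Hsph1, a nucleotide exchange factor of Hsp70, rose from 173 and 180 to 213 and 202 CPM (0.23 ± 0.04, adjusted p = 0.000205). The Hsp90 pair differed: Hsp90ab1, the constitutive form, rose from 1827 and 1859 to 2067 and 2049 CPM (0.16 ± 0.02, adjusted p = 3.16e-05), whereas the inducible Hsp90aa1 was at 1092 and 1084 CPM against 1095 and 1122 CPM and did not pass (0.03 ± 0.03, adjusted p = 0.473, 95% interval -0.03 to 0.08). The difference between the pair was not tested.

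The Hsp40 co-chaperones differed in their calls. Dnaja1 rose from 282 and 299 to 316 and 323 CPM (log2 fold change 0.14 ± 0.04, SE, adjusted p = 0.00526), and the heat-inducible Dnajb1 was at 108 and 112 CPM against 116 CPM in both IL-12 libraries (0.07 ± 0.04, adjusted p = 0.246). The Dnaja1 call was lost without control library 1 and without IL-12 library 2. Dnaja1 overlaps Smu1 on the opposite strand, whose counts equalled 23.8% of its own.

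Hspa1b (ENSMUSG00000090877), a stress-inducible Hsp70 and a standard readout of HSF1, fell from 19.0 and 18.9 CPM to 13.2 and 12.3 CPM. The counts behind these values were 361 and 357 without IL-12 and 261 and 222 with it. The log2 fold change was -0.57 ± 0.10 (SE; 0.671-fold, adjusted p = 0.000221, 95% interval -0.79 to -0.36), the largest fall among the members. Bag3, a co-chaperone of Hsp70 that directs clients to autophagy, fell from 93.1 and 84.6 to 77.6 and 72.0 CPM (-0.25 ± 0.06, adjusted p = 0.00207). In both genes the groups did not overlap. The Bag3 call was lost without IL-12 library 2 (adjusted p = 0.0742).

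Hspa1a, the near-identical neighbour of Hspa1b on chromosome 17, had 2, 0, 2 and 2 counts in the 4 libraries, and Hspb1, the small heat shock protein HSP27, had 4, 2, 4 and 2. Both failed the filter. A count of 3 corresponds to 0.149 to 0.163 CPM in these libraries, a floor that covers counting error only, and no difference was detectable for either gene at this depth. Of the 50-base stretches of the Hspa1b transcripts, 62.3% also occur in those of another gene, Hspa1a, and the handling of reads that match both is not given in the sources used here. With the counts of both genes summed, the numbers of members called stayed at 26 and 2. Hspa1a added at most 2 counts to a library, so the sum could hardly move a call. Reads counted for neither gene are not in this sum. In the 250 bases before the RefSeq starts of Hspa1a and Hspa1b, 247 were identical, and the differences, with the base of Hspa1a first and positions counted from 1 at the 5′ end of that window, were C44T, T47C and T249G.

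The largest rise among the members was that of Hspd1, a gene of the mitochondrial chaperonin. Hspd1 (ENSMUSG00000025980), which encodes Hsp60, the barrel of the complex, was at 410 CPM in both control libraries and at 579 and 589 CPM in the IL-12 libraries. Its log2 fold change was 0.51 ± 0.03 (SE; 1.42-fold, adjusted p = 2.07e-10, 95% interval 0.45 to 0.57). Hspe1, the Hsp10 lid, rose from 146 and 152 to 199 and 176 CPM (0.33 ± 0.05, adjusted p = 3.81e-05). Hspe1 overlaps Hspd1 by 112 bases on the opposite strand, and Hspd1 had 295% of its counts. The IL-12 libraries of Hspe1 were farther apart than its control libraries, and all were above them. A pseudogene, Hspd1-ps3, shares 42.8% of the 50-base stretches of Hspd1 and was counted 145 and 216 times under control conditions and 340 and 210 times after IL-12, against 7777, 7749, 11465 and 10668 for Hspd1 itself.

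Hspd1 and Hspe1 lie head to head on chromosome 1, Hspd1 on the minus strand (55077835 to 55088243) and Hspe1 on the plus strand (55088132 to 55091307), and their annotated ends overlap by 112 bases. The heat shock element was taken as GAANNTTCNNGAA or TTCNNGAANNTTC, which are each other's reverse complement, and was counted once where matches overlap. It was in 0.662% of all genes with a window and in both Hspd1 and Hspe1. Of the 7 cytosolic heat shock genes with a window, Hsph1 alone held it (14.3%). The stretch between the RefSeq starts of Hspd1 and Hspe1 is printed because a single run of the element serves both windows. It is chr1:55087933-55088147, read on the plus strand toward Hspe1, with the element in capitals.
Hspd1 and Hspe1 shared promoter: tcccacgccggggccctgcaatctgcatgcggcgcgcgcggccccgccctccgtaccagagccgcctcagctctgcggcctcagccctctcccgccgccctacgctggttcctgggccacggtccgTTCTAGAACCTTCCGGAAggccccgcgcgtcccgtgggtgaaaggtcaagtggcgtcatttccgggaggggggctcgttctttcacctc
The capitals span 55088059 to 55088076, which is 89 to 72 bases before the start of Hspe1 and 144 to 127 before that of Hspd1. The Hspa1b window held no match to these letters, like the windows of the other cytosolic heat shock genes except Hsph1. Only exact matches within the windows were searched, so a missing match does not show that a gene lacks the element.

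Set side by side, the share called higher was 86.7% for the ER chaperones and 50% for the ATF4 targets. It was also 50% for the cytosolic heat shock genes tested, of which 25% (2 of 8) were called lower. Over all genes tested, 16.1% were called higher and 14.4% lower, and at 10 CPM or more 21.7% and 18.2%. The members were chosen with earlier results of these data known. In the order ER chaperones, ATF4 targets and cytosolic heat shock genes, the medians were 0.23, 0.16 and 0.11 on the log2 scale. The differences between the groups were not tested. The plot of cumulative shares gives these distributions beside all genes.

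**Figure D3:**
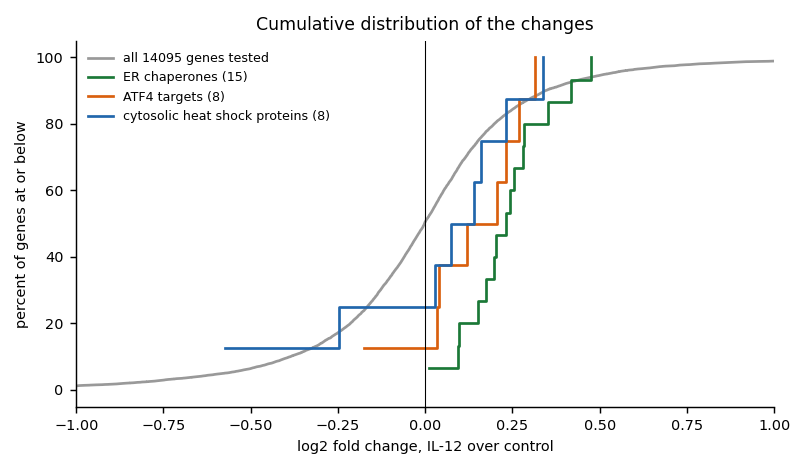
Percent of genes at or below each log2 fold change, IL-12 over control, for the 15 ER chaperones, 8 ATF4 targets, 8 cytosolic heat shock genes and all 14095 genes tested; the axis is drawn from -1 to 1. The ER chaperone line runs wholly to the right of 0, with a median of 0.23, while the line of all genes crosses its middle at -0.002.

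Levels between genes can be compared only per length, in the deposited FPKM (fragments relative to gene length and library size). The length used exceeds the longest coding transcript by unlike amounts. For Hspa8 it is 4301 bases against 2394, and for Pdia4 both are 2399. The order of the genes depends on these lengths. In the control group Hsp90ab1 was highest at 615 ± 8.50 FPKM (SD, n = 2), followed by Hspa8 at 380 ± 7.22, Phgdh at 347 ± 0.0710, Calr at 343 ± 0.334, Pdia3 at 292 ± 1.57, Hsp90aa1 at 277 ± 1.02 and Hspa5 at 190 ± 0.727. Hspd1 and Canx, both at 155 FPKM, did not differ beyond their spread, nor did Hsp90b1 at 139 ± 1.56 and Atf4 at 136 ± 4.40. Several of these levels are uncertain, because the transcripts share 50-base stretches with other genes, for 74.8% of the stretches of Hspa8, 63.1% of Phgdh and 58.5% of Hsp90aa1. The same holds for 51.6% of Hspb1 and 44.8% of Hspe1. The fold changes of these genes rest on the same counts. The lowest members tested were Hspa1b at 6.77 ± 0.0270 and Ern1 at 5.14 ± 0.253 FPKM. Hspb1 and Hspa1a were at 0.154 and 0.0178 FPKM. After IL-12 Hspa5 reached 265 ± 3.82 and Hspd1 221 ± 2.73 FPKM, and Calr, at 395 ± 5.19 FPKM, then lay above Phgdh at 377 ± 2.58.

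**Figure D4:**
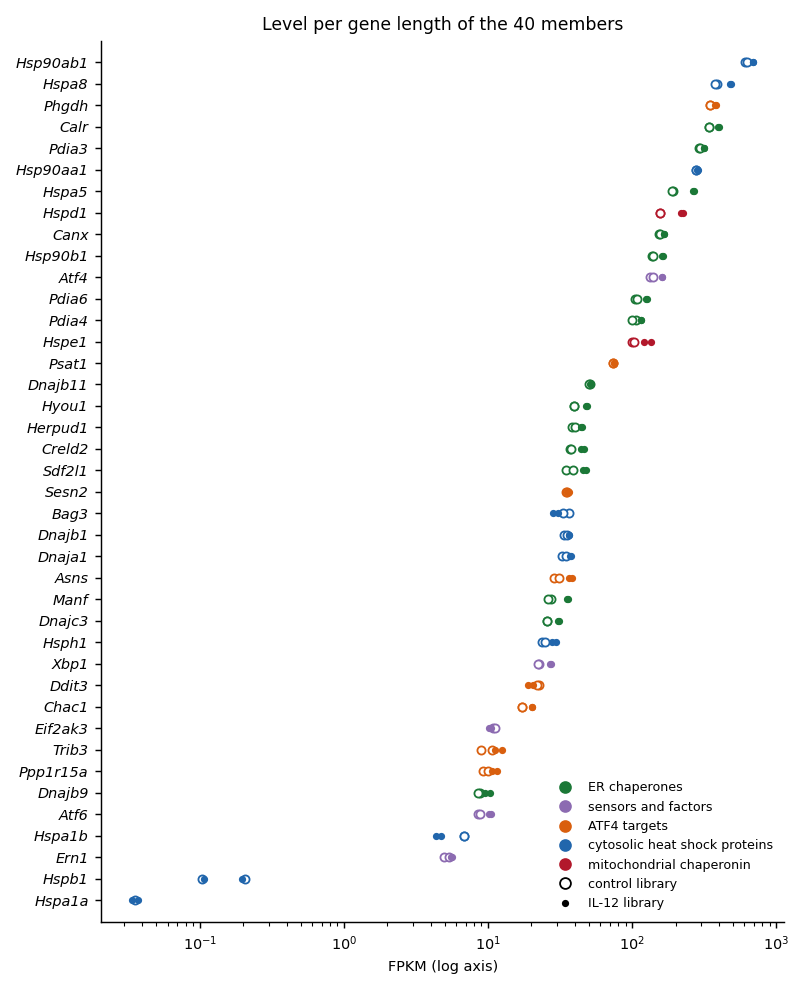
Deposited FPKM of the 40 members on a log axis, ordered by the control mean; open circles are control libraries, filled points are IL-12 libraries, and colours mark the groups of members. A control library with Hspa1a at 0 cannot be drawn. Control means run from 615 FPKM for Hsp90ab1 down to 0.0178 FPKM for Hspa1a.

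Other genes of the same pathways were counted from lists that are no members. Beside the counts of each list, 16.1% of all genes tested were called higher and 14.4% lower. Of 35 other ER folding and degradation genes tested, 15 were higher and 4 lower (median log2 fold change 0.07). Sec61a1, the channel of the ER translocon, rose from 204 ± 0.989 to 257 ± 8.32 CPM (SD, n = 2; 0.33 ± 0.04, SE, edgeR adjusted p = 1.18e-06), and the translocon-associated subunits Ssr1, Ssr2 and Ssr3 rose by 0.27, 0.24 and 0.23. Crebrf, a regulator of the ER-bound factor CREB3, fell from 31.0 ± 0.643 to 20.8 ± 1.09 CPM (-0.58 ± 0.08, adjusted p = 1.97e-05), and Wfs1, an ER membrane protein, fell by 0.27.

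Of 39 other ATF4 and integrated stress response genes tested, 16 were higher and 7 lower (median 0.12). The transfer RNA synthetases Tars and Nars rose by 0.40 and 0.37, the mitochondrial serine enzyme Shmt2 by 0.37 and the amino acid transporter Slc7a5 by 0.31 on the log2 scale. Gdf15, a secreted stress cytokine, fell from 400 ± 20.8 to 285 ± 14.0 CPM (SD, n = 2; -0.49 ± 0.04, SE, adjusted p = 2.31e-08). Atf3, a stress-induced factor, fell from 9.96 ± 1.36 to 6.43 ± 0.265 CPM (-0.63 ± 0.14, adjusted p = 0.00240), and Slc38a2, an amino acid transporter, by 0.28.

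Of 37 other heat shock and chaperone genes tested, 20 were higher and 4 lower (median 0.14). Cct6a, Cct2 and Cct3, subunits of the cytosolic chaperonin, rose by 0.37, 0.30 and 0.29, and Hspa4, an Hsp70 exchange factor, by 0.34. Cryab, the small heat shock protein αB-crystallin, fell from 496 ± 3.80 to 373 ± 2.53 CPM (-0.41 ± 0.03, adjusted p = 5.15e-09). Its relative Hspb6 fell by 0.36 from 14.9 ± 0.226 CPM.

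Markers of other kidney cells gave the following. The 5 endothelial genes summed to 0.159 to 0.556 CPM per library. The 6 leukocyte genes summed to 26.5 and 29.1 CPM in the control libraries and 16.1 and 20.3 CPM in the IL-12 libraries, nearly all from Csf1r and Cd68, with Adgre1 and Cd3e at 0. The 5 tubule genes summed to 658 and 632 CPM and to 517 and 557 CPM, nearly all from Lrp2, with Slc34a1 and Umod at 0. The 5 mesangial genes summed to 206 CPM in both control libraries and to 222 and 231 CPM in the IL-12 libraries, with Itga8 at 0 or 1 count. The leukocyte and tubule sums were lower and the mesangial sum higher in both IL-12 libraries, but single markers differed. Csf1r was called lower (-0.88 on the log2 scale), whereas Cd68 did not pass (0.07) and Ptprc, too low to test, had 3 and 1 counts in control and 6 and 12 after IL-12. Of the mesangial genes Acta2 and Pdgfrb were called higher (0.14 and 0.23) and Gata3 lower (-0.33). Among the podocyte genes named above, Synpo was called lower (-0.66), Podxl and Actn4 higher (0.33 and 0.17), and Cd2ap did not pass (-0.02). The part of any marker gene in the changes of the members was not tested.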

How the data were processed

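RNA-sequencing of 4 libraries was analysed. The authors deposited whole-number counts per gene and, in a second table, FPKM; each FPKM is the count divided by gene length and library size, up to a constant of the library. The submitters' processing notes name HISAT2, StringTie and mm9, without versions. Of the 54409 genes found in both annotations, 53499 (98.3%) have the coordinates of GENCODE M21 (GRCm38) in the deposited table, so gene coordinates are given as deposited and read as that build. The handling of multiply matching reads and of strand is not given in the sources used here.

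edgeR 4.0.16 (R 4.3.3) was used for the main fit. Genes were kept by filterByExpr (minimum 10 counts, 15 in total), which left 14095; libraries were scaled by TMM (factors 1.02, 1.01, 0.985 and 0.987) and groups compared by the quasi-likelihood test without a block, with Benjamini-Hochberg adjustment. SE was derived from the log2 fold change and its F statistic, and 95% intervals use the t quantile. Values over libraries are mean ± SD (n = 2). DESeq2 1.42.0, limma 3.58.1 voom, other scalings, filters and left-out libraries were alternatives. The steps were tested on simulated data with larger changes than most members showed, so smaller changes were not covered. Counts of same-group libraries were farther apart than sampling noise (chi-square per degree of freedom 2.13 and 2.41), so no library was taken for a copy of another, which does not show that they are separate cultures. Between groups it was 16.4 to 19.7. Promoter sequences came from RefSeq (GRCm38.p6; 250 bases before to 50 after a start), of which 34 members matched. Figures were drawn with Python 3.11.15 and matplotlib 3.10.9.

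The members and all gene lists were chosen with earlier results of these data known. All 40 members were described; of the other pathway genes, the 4 with the smallest p in each direction per list, among those called, could be named. Some marker genes are not reported here.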

Additional observations from a re-analysis of the deposited data

How the results depend on the processing

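Of 38 members, the calls stayed 26 higher and 2 lower with DESeq2 size factors, limma voom and at least 10 counts in every library. Over all genes these settings called 2254, 2253 and 2231 higher, in that order, and 2048, 2013 and 2048 lower. The main fit called 2267 and 2030. The members also stayed at 26 and 2 with Hspa1a and Hspa1b summed, where Hspa1a added at most 2 counts to a library. They were 24 and 2 with DESeq2's Wald test and with no filter. The Wald test called 1492 genes higher and 1213 lower, and no filter 1700 and 1456. With the 2-fold criterion added, 0 and 0 members were called, beside 1.61% of all genes. Scaling by total counts alone gave 22 higher and 4 lower, a median of 0.065 for the cytosolic heat shock genes, and 1766 genes higher and 2588 lower overall (40.6% of calls higher, beside 52.8% with TMM), with the median of all genes moved to -0.043. It reversed 4 members that had not passed, Dnajb11 (-0.030), Sesn2 (-0.002), Psat1 (-0.006) and Hsp90aa1 (-0.013), and Trib3, Chac1, Canx and Pdia3 lost their calls. Without 1 library, 20 to 25 members were higher and 1 to 2 lower, and the lone library of a group was assumed to vary like the other group. The fewest came without control library 1, which lost Canx, Pdia3, Herpud1, Trib3, Chac1 and Dnaja1. Without control library 2 Pdia4 and Chac1 were lost and Ppp1r15a gained; without IL-12 library 1, Pdia4, Herpud1, Trib3 and Chac1 were lost, and Dnajb11 turned to -0.004, within a range of -0.004 to 0.028 without 1 library. Medians then ranged from 0.224 to 0.244 for the ER chaperones, 0.136 to 0.176 for the ATF4 targets and 0.076 to 0.135 for the cytosolic genes. The causes were not tested.

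Same-numbered libraries showed no common deviation over all genes tested (correlation -0.0297). Pairing is not stated in the sources used here, and this value cannot show that the libraries were unpaired. With the replicate number as a block, 26 members were higher and 2 lower, beside 2272 and 2069 of all genes. No call of a member changed.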

Other observations

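Within the other pathway genes, some complexes were picked out after their values were seen, and the counts below are descriptions. Over all genes tested, 16.1% were called higher and 14.4% lower. Both IL-12 libraries lay above both control libraries for 31.7%. All 8 genes of the cytosolic chaperonin (Tcp1 and Cct2 to Cct8), which folds actin and tubulin, were called higher, with log2 fold changes of 0.16 to 0.37 (median 0.23) and both IL-12 libraries above both control libraries for each. All 6 genes of the ER translocon and its associated complex on the lists (Sec61a1, Sec61b, Sec61g, Ssr1, Ssr2 and Ssr3) were higher, by 0.15 to 0.33. Of the 10 aminoacyl-tRNA synthetases on the lists, 8 were higher and 0 lower (range 0.04 to 0.40), and both IL-12 libraries lay above both control libraries for 9.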
